A study of Rattus norvegicus with 72 samples.

Results

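Cytochrome P450 enzymes were followed in rat liver, mammary gland and fat during pregnancy and lactation. Members were the probe sets of the deposited table whose only gene symbol starts with Cyp followed by a family number, a letter and a number. Cyp7a1, Cyp8b1, Cyp27a1 and Cyp51 were left out by the rule. With the brightest probe set kept for each gene over the 60 arrays of standard gravity and hypergravity, 54 of 14217 genes with a probe set of their own were members, and 43 of them have a family number of 1 digit. The rule uses symbols and brightness and no difference between groups, but it was set with earlier results of these data known.

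The arrays (72 in all) held RNA of liver, mammary gland and adipose tissue from rats in hypergravity and at standard gravity, in lactation and in pregnancy. The 12 groups were lactating hypergravity, lactating standard gravity, pregnant hypergravity and pregnant standard gravity in each tissue, with 5 arrays each, and the array codes give the same 20 rats for all tissues. The remaining 12 arrays, 4 per group, were of mammary gland in pregnancy after microgravity (FLT), in its flight control (FDS) and in its vivarium control (VIV). Strain, age, gestation and lactation days, and the size and duration of the gravity load were not given in the sources used here. Array codes give the tissue (L, M or A), the rat and the gravity (H or S), and rats with 3 digits were lactating. All values are log2 signals, on which 1 unit is a 2-fold difference.

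P450 enzymes are haem proteins that insert oxygen into their substrates, and most take their electrons from the reductase Por in the endoplasmic reticulum. Liver is known for the members of families 1 to 3, which oxidise drugs and steroids. Family 4 hydroxylates the end of fatty acids and eicosanoids and includes known targets of the fatty acid receptor PPARalpha. Other members make or break down signals, namely steroid hormones, retinoic acid, vitamin D and oxysterols. In rat liver several members differ between the sexes under the control of growth hormone.

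Of the 54 members 3 belonged to family 1, 25 to family 2, 4 to family 3 and 10 to family 4. A further 5 act in steroid hormone synthesis, 3 on oxysterols, 2 on retinoic acid and 1 on vitamin D, and 1, Cyp20a1, is an orphan. RefSeq gave a position on the GRCr8 rat assembly for all 54, on 11 chromosomes, and 36 members lay within 1000000 bases of another member, in 8 runs. The longest run held 10 members (Cyp2s1, Cyp2b3, Cyp2b21, Cyp2b12, Cyp2g1, Cyp2a3, Cyp2a1, Cyp2a2, Cyp2f4 and Cyp2t1) on chromosome 1 between 90437741 and 91579215. Neighbours of the same subfamily can be similar in sequence, so that a probe set can take signal from a neighbour. The runs were set by distance alone, and similarity was not computed. A further 7 probe sets carried several P450 symbols and were not used, among them those of Cyp2b1 with Cyp2b2 and of Cyp4a2 with Cyp4a3.

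The liver results below turn on Cyp4a3, a fatty acid omega-hydroxylase, and on the arachidonic acid epoxygenases Cyp2j3 and Cyp2j4. All are on the minus strand of chromosome 5, Cyp4a3 at 134334396 to 134352268, Cyp2j4 at 116295691 to 116323219 and Cyp2j3 at 116335755 to 116360677 (GRCr8). Their promoters (RefSeq, GRCr8) are 300 bases around the transcript start of the promoter table, which for each lies inside the gene span just given. These promoters are shown because in hypergravity livers Cyp2j3 and Cyp2j4 rose in lactation and Cyp4a3 fell. At standard gravity only Cyp4a3 was called, and Cyp2j4 was slightly lower in lactation. Capitals mark AGGTCA, a hexamer bound by nuclear receptors, and TTCNNNGAA, the palindrome of STAT5, the factor behind prolactin and growth hormone receptors.
Cyp4a3 chr5:134352187-134352486: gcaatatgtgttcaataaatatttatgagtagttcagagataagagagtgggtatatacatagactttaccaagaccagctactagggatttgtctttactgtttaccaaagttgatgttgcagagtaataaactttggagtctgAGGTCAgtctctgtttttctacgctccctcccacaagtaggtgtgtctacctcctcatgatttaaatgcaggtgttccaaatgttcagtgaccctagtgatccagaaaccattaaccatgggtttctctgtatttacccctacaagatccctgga
Cyp2j3 chr5:116360450-116360749: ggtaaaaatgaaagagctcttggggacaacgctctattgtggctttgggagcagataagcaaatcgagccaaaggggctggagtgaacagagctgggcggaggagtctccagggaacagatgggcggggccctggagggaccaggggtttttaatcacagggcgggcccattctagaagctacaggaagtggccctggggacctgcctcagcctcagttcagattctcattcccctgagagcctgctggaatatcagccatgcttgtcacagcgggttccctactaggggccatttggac
Cyp2j4 chr5:116322993-116323292: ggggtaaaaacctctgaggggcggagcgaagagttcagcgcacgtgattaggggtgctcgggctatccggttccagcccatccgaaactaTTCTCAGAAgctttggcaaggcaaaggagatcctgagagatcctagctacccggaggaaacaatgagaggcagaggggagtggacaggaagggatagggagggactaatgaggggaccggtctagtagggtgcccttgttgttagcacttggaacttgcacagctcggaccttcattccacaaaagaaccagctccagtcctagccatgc

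AGGTCA was found in the Cyp4a3 window, in 1 place, and TTCNNNGAA in the Cyp2j4 window, in 1 place. The Cyp2j3 window held neither of these letters on either strand, and none of these windows held GCGTG, the core of aryl hydrocarbon receptor sites. Over the 33469 rat promoters of the same length AGGTCA was present in 16.2%, TTCNNNGAA in 8.9% and GCGTG in 29.7%. Among the 43 members with a promoter sequence, 15 held AGGTCA, 5 held TTCNNNGAA and 11 held GCGTG. TTCNNNGAA was added after the data were seen.

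Before any comparison, several arrays stood apart from their labels. M210H and A210H, mammary and adipose arrays of a lactating hypergravity rat, carried each other's tissue pattern, and the P450 genes follow it: Cyp2j10 was 3.45 in M210H, where the other mammary arrays of the group had 5.92 to 7.43. In A210H it was 7.74, where the other adipose arrays of the group had 2.91 to 3.39. Both arrays are left out by the rule, which leaves 4 arrays in these groups. Mean signal over 13 hepatocyte marker genes other than P450 was 10.15 in M56H, 7.06 in M52S and 5.98 in M57S, where the other 16 mammary arrays had 3.59 to 4.66 and liver had 12.45 to 12.76. These arrays are from pregnant rats, so mammary results are also given without them. Skeletal muscle markers reached 8.26 in lactating hypergravity and 8.71 in pregnant hypergravity mammary gland, where group medians were 4.70 and 4.68. They reached 10.99 in A217H and 12.35 in A48S, where group medians were 4.67 in lactating hypergravity and 4.43 in pregnant standard gravity adipose tissue. Milk protein markers had a mean of 5.02 in L212H, 5.93 in L214S, 6.49 in L55H and 6.53 in A55H, where the group medians were 3.37, 3.16, 3.16 and 3.13. These arrays with muscle or milk protein markers were kept.

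Expression differed first of all by tissue. Array medians ran from 4.32 to 4.56, and 36 members had a group mean above 4.56 in liver, 16 in mammary gland and 15 in adipose tissue. Without M56H, M52S and M57S the mammary count was 15, since the highest mammary group mean of Cyp2c7 was then 3.44 in place of 4.95. With all arrays this was so in liver alone for 22 members (23 without those 3 arrays) and in all tissues for 12, among them Cyp20a1, Cyp2u1, which hydroxylates long fatty acids, and Cyp4v3, whose human counterpart hydroxylates fatty acids. Only Cyp2j10 was above it in mammary gland alone, and Cyp1b1 and Cyp26b1 in adipose tissue alone. A group of 14 members stayed under it in every group, and it held Cyp19a1 (aromatase), Cyp7b1 and Cyp46a1 (oxysterol enzymes), Cyp27b1 (vitamin D activation), Cyp11b1, Cyp1a1, Cyp2g1, Cyp2s1, Cyp4a8, Cyp2b12, Cyp2b21, Cyp2a3 and the male-predominant rat liver enzymes Cyp2a2 and Cyp3a2. Single arrays can exceed it where a mean does not, and a level near the array median does not show that a gene is off.

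**Figure D1:**
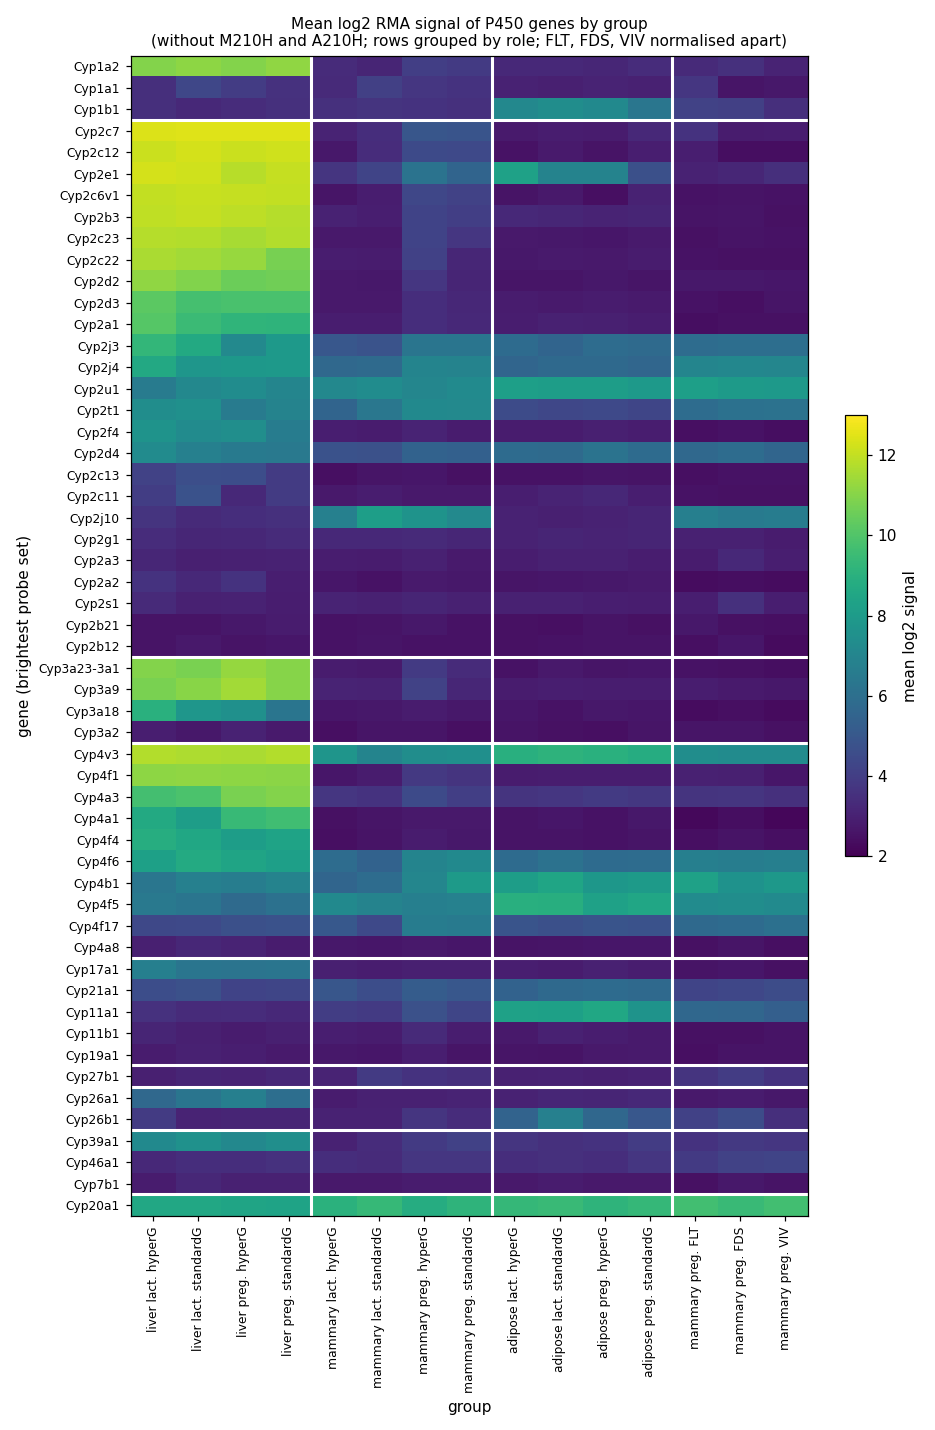
Mean log2 signal of the 54 P450 genes (rows, grouped by role) in the 15 groups (columns, liver first; FLT, FDS and VIV were normalised apart and their colours are not comparable with the other columns). Most upper rows of families 2 and 3 are brightest in liver, Cyp2j10 is bright in mammary gland only, and Cyp11a1, Cyp1b1 and Cyp26b1 are brightest in adipose tissue.

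Differences between tissues were averaged over the stage and gravity groups in 1 limma fit of 58 arrays, with p-values adjusted over all 31042 probe sets and calls made at adjusted p under 0.05. Liver against mammary gland, 37 of 54 members were higher and 7 lower in liver, where 34.4% of all probe sets were called higher and 32.1% lower. In bulk tissue fewer cells of a type and less RNA per cell cannot be told apart. Members had a median log2 difference of 1.69, where all probe sets had 0.05. Liver against adipose tissue, 39 were higher and 9 lower, against a background of 32.8% and 28.9%, with a median of 2.07 for members and 0.05 for all probe sets. Mammary gland against adipose tissue, 10 were higher and 11 lower in mammary gland, where 26.4% and 25.6% of probe sets were called, so that the members' share lay below the background.

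The 8 members with the largest excess of liver over mammary gland were all of families 2 to 4. Cyp2c6v1 averaged 12.03 in liver and 3.51 in mammary gland, a difference of 8.52 (SE 0.40, adjusted p = 3.8e-25). Cyp2c12, a female-specific rat liver steroid hydroxylase, was 8.43 log2 units higher (12.18 in liver and 3.75 in mammary gland). Cyp2b3 and Cyp2c7 each differed by 8.36, the epoxygenase Cyp2c23 by 8.33, Cyp2c22 by 8.02, Cyp4f1 by 7.88 and the drug and steroid oxidase Cyp3a23-3a1 by 7.79. Against adipose tissue the same 8 led, with Cyp2c7 at 9.51 (12.45 in liver and 2.94 in adipose tissue, SE 0.43, adjusted p = 6.8e-26). The means of these genes in the low tissues lie under the array medians, so these folds are approximate. Differences from mammary gland here, and their order, are with M56H, M52S and M57S kept. Cyp2c6v1 was 10.87, 7.15 and 5.69 in these arrays, where the other 16 mammary arrays had 2.48 to 3.22.

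Fewer members were lower in liver. The 7 that were lower than in mammary gland were Cyp2j10 (3.48 in liver and 7.44 in mammary gland, difference -3.97, SE 0.13, adjusted p = 1.3e-31), Cyp4f17 (-1.08), Cyp11a1 (-0.83), Cyp4f5 (-0.77), Cyp20a1 (-0.60), Cyp21a1 (-0.48, adjusted p = 0.0025, and 0.072 with quantile normalization repeated) and Cyp27b1 (-0.40). Against adipose tissue the lead was Cyp11a1, which cuts the cholesterol side chain at the start of steroid synthesis, at 3.39 in liver and 8.19 in adipose tissue (difference -4.80, SE 0.18, adjusted p = 3.8e-29). Cyp1b1, an aryl hydrocarbon responsive oxidase of estrogens, followed with 3.42 in liver and 7.01 in adipose tissue (-3.59). Cyp4f5 differed by -2.50, the retinoic acid hydroxylase Cyp26b1 by -2.42, Cyp4b1 by -1.41, the steroid hydroxylase Cyp21a1 by -1.23, Cyp2u1 by -1.06 and Cyp20a1 by -0.81.

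Between mammary gland and adipose tissue the called members included genes of several roles. Cyp2j10 (4.39, with 7.44 in mammary gland and 3.06 in adipose tissue), Cyp2t1 (2.18), Cyp4f17 (0.84), Cyp2j4 (0.68), Cyp27b1 (0.48), Cyp3a9 (0.48), Cyp4f6 (0.47), Cyp2c7 (1.14), Cyp2c12 (1.04) and Cyp1a1 (0.66) were higher in mammary gland. The Cyp2c7, Cyp2c12 and Cyp3a9 values moved by over 1.5 times with the mammary arrays that carry hepatocyte markers. Without M56H, M52S and M57S, Cyp2c7 fell to a difference of 0.28 (adjusted p = 0.11), Cyp2c12 to 0.23 (adjusted p = 0.041) and Cyp3a9 to 0.20 (adjusted p = 0.025). Calls of Cyp2c7 were also lost without the rat of M202S (0.051), M212H (0.053), M52S (0.058) or M57S (0.062), and of Cyp2c12 without that of M52S (0.062) or M57S (0.056). Cyp1a1 passed at adjusted p = 0.038 but not without the rat of M206H (0.052), M214S (0.077), M217H (0.091), M42S (0.067), M52S (0.051) or M55H (0.052). On the other side, mammary gland was lower in Cyp11a1 (-3.97), Cyp1b1 (-3.42), Cyp26b1 (-2.44), Cyp2e1 (-1.79), Cyp4f5 (-1.73), Cyp4v3 (-1.57), Cyp4b1 (-1.46) and Cyp2u1 (-0.88). With the mean of its probe sets, Cyp26b1 gave -1.54 here and -1.39 for liver against adipose tissue.

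A set of 17 members lay over 5 log2 units higher in liver than in each other tissue. Their mean was raised in the mammary arrays with raised hepatocyte markers, and no relation within a tissue was computed. The set was picked by that difference, so it is a description. Its mean was 10.75 to 11.15 in liver arrays and 2.85 to 3.38 in adipose arrays. In 16 mammary arrays it was 2.84 to 3.29, against 7.69 in M56H, 5.30 in M52S and 4.11 in M57S. Cyp2c7 alone reached 11.54 in M56H, 8.36 in M52S and 6.76 in M57S, and 2.55 to 4.80 in the other 16. In the separate microgravity set, FLTB had the highest hepatocyte mean (5.51) and a liver-high P450 mean of 3.22, the highest of the 12 arrays.

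**Figure D2:**
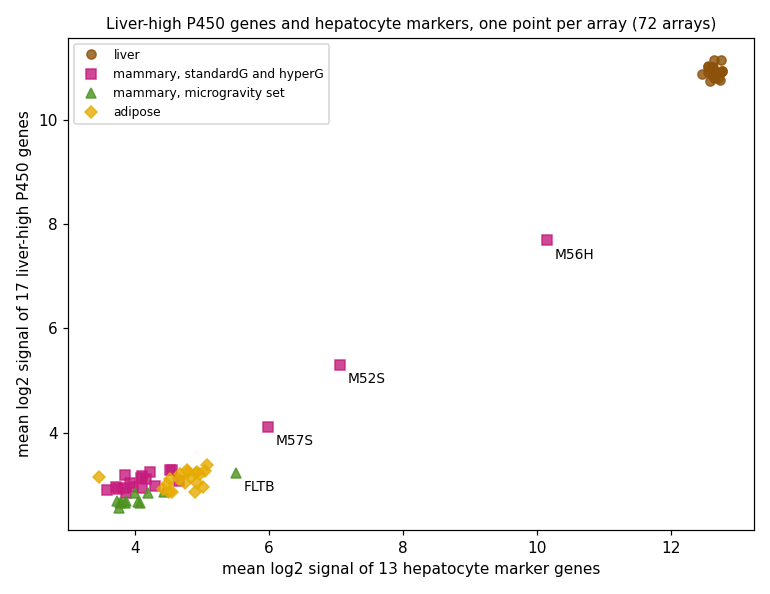
Mean log2 signal of the 17 liver-high P450 genes (vertical axis) against the mean log2 signal of 13 hepatocyte markers (horizontal axis), 1 point for each of the 72 arrays, with M210H and A210H drawn under their labels. Liver arrays sit together at 10.75 to 11.15, and M56H, M52S and M57S are the mammary arrays that rise from the low cluster toward them.

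In liver, the change between pregnancy and lactation was asked separately in hypergravity and at standard gravity, with 5 arrays per group in 1 fit of the 20 liver arrays. In hypergravity 6 members were higher and 2 lower in lactation, together 14.8% of the 54, where 1.22% of all probe sets were higher and 2.01% lower. Members had a median absolute log2 change of 0.27 and all probe sets 0.17. Those that rose were Cyp2j3, Cyp2a1, Cyp2j4, Cyp4f4, Cyp2d2 and Cyp2e1, and those that fell were Cyp4a3 and Cyp3a9. At standard gravity 0 members were higher and 1, Cyp4a3, lower, where 0.341% and 0.280% of all probe sets were called, and 10 members had an unadjusted p under 0.05.

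Cyp2j3 showed the largest of these changes. In hypergravity its signal was 8.74, 8.93, 9.06, 9.70 and 9.91 in lactating livers, against 6.77, 6.84, 7.03, 7.55 and 7.65 in pregnant livers. The groups did not overlap, with a 4.29-fold excess in lactation (log2 2.10, SE 0.25, adjusted p = 7.9e-05). At standard gravity lactating livers had 8.25, 8.51, 8.76, 8.88 and 9.08 and pregnant livers 7.40, 7.78, 7.89, 8.05 and 8.62, a difference of 0.75 (SE 0.25, adjusted p = 0.22), with the groups overlapping. A second probe set of Cyp2j3, dimmer at a liver mean of 5.75, gave 2.63 in hypergravity and 1.08 at standard gravity. The difference of the stage effect between gravities was 1.35 (SE 0.36, adjusted p = 0.14).

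Cyp2j4, its neighbour on chromosome 5, rose in hypergravity as well. It was 8.29, 8.55, 8.69, 8.69 and 9.07 in lactating and 7.67, 7.76, 7.81, 7.95 and 8.15 in pregnant hypergravity livers (log2 0.79, SE 0.18, adjusted p = 0.018). Every lactating array lay above every pregnant one, and without L56H the adjusted p was 0.051. At standard gravity lactating livers averaged 7.76 and pregnant livers 7.92, a difference of -0.16 (SE 0.18, adjusted p = 0.80). Cyp2j10, the third member of that run, is under the array median in liver (difference 0.22 in hypergravity, adjusted p = 0.59).

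Family 2 members of drug and steroid oxidation made up the rest of the rise in family 2. Cyp2a1, which hydroxylates testosterone, was 9.63, 9.97, 10.23, 10.28 and 10.44 in lactating hypergravity livers against 8.91, 9.13, 9.21, 9.27 and 9.54 in pregnant ones (log2 0.90, SE 0.17, adjusted p = 0.0042), with no overlap. Cyp2d2, a drug oxidase, was 10.94 to 11.45 in lactating livers and 10.36 to 10.69 in pregnant livers (medians 11.16 and 10.58, log2 0.65, SE 0.14, adjusted p = 0.014). Cyp2e1, which oxidises ethanol and ketones, was 12.08, 12.18, 12.28, 12.40 and 12.50 in lactating and 11.65, 11.71, 11.88, 11.90 and 11.90 in pregnant livers (log2 0.48, SE 0.12, adjusted p = 0.029). The groups did not overlap, yet its call was lost without L206H (0.051), L212H (0.059), L217H (0.073), L50H (0.053), L55H (0.067) or L60H (0.075), when each array was centred on its median (0.05) and when only the groups compared were fitted (0.073). At standard gravity the same genes differed by 0.35 (Cyp2a1), 0.32 (Cyp2d2) and 0.16 (Cyp2e1), with adjusted p of 0.46, 0.43 and 0.67.

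Family 4 members went both ways. Cyp4a3 was lower in lactation at both gravities. In hypergravity it was 9.27, 9.64, 9.66, 9.73 and 10.22 in lactating and 10.46, 10.54, 10.93, 10.99 and 11.10 in pregnant livers (log2 -1.10, SE 0.20, adjusted p = 0.0029). At standard gravity it was 9.32, 9.82, 9.88, 10.02 and 10.40 in lactating and 10.57, 10.87, 10.99, 11.18 and 11.25 in pregnant livers (log2 -1.08, SE 0.20, adjusted p = 0.011). In neither comparison did the groups overlap. Cyp4a1, another fatty acid omega-hydroxylase and a known PPARalpha target, averaged 8.14 in lactating and 9.62 in pregnant livers at standard gravity (difference -1.48, SE 0.37, adjusted p = 0.081). Its standard gravity groups did not overlap, at 7.53 to 8.59 in lactating and 8.99 to 10.37 in pregnant livers. With array weights Cyp4a1 was called there (-1.55, adjusted p = 0.027). In hypergravity it averaged 8.67 and 9.41 (difference -0.74, adjusted p = 0.34).

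Cyp4f4, which hydroxylates leukotrienes and arachidonic acid, went up in hypergravity lactation. Its signal was 8.69, 8.69, 8.76, 8.95 and 9.13 in lactating and 7.96, 8.06, 8.14, 8.18 and 8.38 in pregnant livers (log2 0.70, SE 0.12, adjusted p = 0.0021). At standard gravity the difference was 0.18 (adjusted p = 0.64). The other members of its run on chromosome 7 (Cyp4f17, Cyp4f5, Cyp4f1 and Cyp4f6) were not called in liver, though Cyp4f5 passed without L210H (0.82, adjusted p = 0.036) and Cyp4f6 passed at standard gravity without L201S (0.62, adjusted p = 0.045).

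In family 3, Cyp3a9, a steroid hydroxylase that is female-predominant in rat liver, was lower in hypergravity lactation. It was 10.65, 10.66, 10.71, 10.74 and 11.06 in lactating and 11.18, 11.47, 11.55, 11.61 and 11.61 in pregnant livers (log2 -0.72, SE 0.15, adjusted p = 0.0099). At standard gravity lactating livers had 10.97 to 11.11, inside the 10.44 to 11.46 of pregnant livers (difference 0.04, adjusted p = 0.95). Cyp3a18 varied more: it averaged 8.97 ± 0.89 in lactating and 7.53 ± 0.53 in pregnant hypergravity livers (SD, n = 5 each). Averages at standard gravity were 7.76 ± 0.30 in lactating and 6.26 ± 1.51 in pregnant livers. Its differences were 1.44 in hypergravity (adjusted p = 0.16) and 1.5 at standard gravity (adjusted p = 0.25), and the standard gravity one passed without L57S (2.13, adjusted p = 0.009). Cyp3a23-3a1 differed by -0.30 (adjusted p = 0.56) in hypergravity and by -0.22 (adjusted p = 0.78) at standard gravity.

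**Figure D3:**
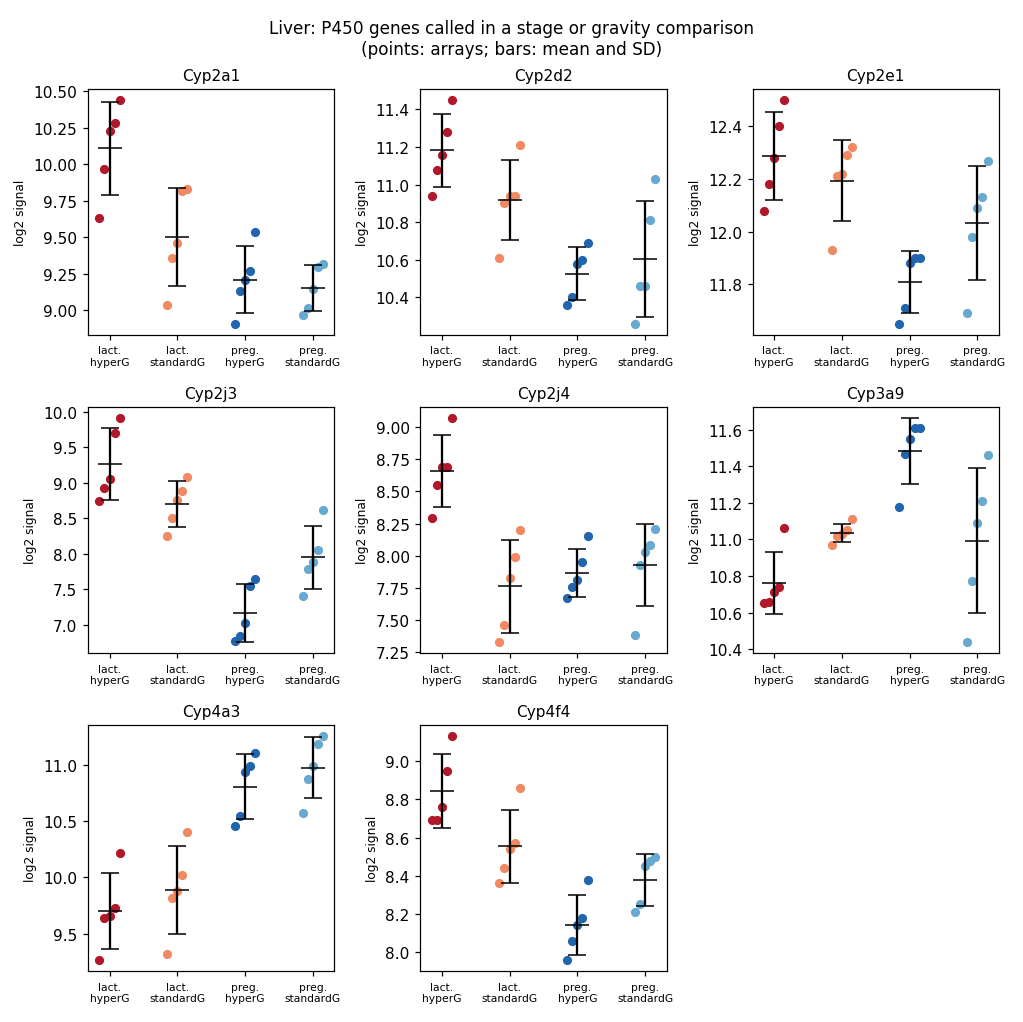
Log2 signal in each liver array of the 8 P450 genes called in a liver stage or gravity comparison (points, 5 per group; bars, mean and SD; each panel has its own axis). In the hypergravity pair of each panel the lactating and pregnant arrays are fully apart, and Cyp4a3 is the gene that is apart at standard gravity too.

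Other members central to liver P450 biology were not called between stages. Cyp2c12 reached at most 12.37 and Cyp2c7 ranged from 12.33 to 12.55 over the 20 livers, and neither differed by more than 0.09 between stages. Both are among the brightest members in liver, and whether such high signals are compressed was not tested. Cyp1a2, which oxidises caffeine and is inducible through the aryl hydrocarbon receptor, differed by 0.03 in hypergravity and by -0.06 at standard gravity (adjusted p = 0.96 and 0.95). Cyp17a1, of steroid synthesis, averaged 6.74 ± 0.95 in lactating and 6.22 ± 0.74 in pregnant hypergravity livers. At standard gravity it averaged 6.28 ± 0.63 in lactating and 6.29 ± 0.77 in pregnant livers. Cyp26a1, which clears retinoic acid, averaged 5.72 ± 1.53 in lactating and 6.75 ± 0.46 in pregnant hypergravity livers (difference -1.03, adjusted p = 0.34). Cyp7b1 averaged 2.85 to 3.22 in the liver groups.

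Some members were set apart by single livers. Cyp1a1 had a pooled within-group SD of 1.36, with 7.67 in L201S, 7.23 in L59H and 4.48 in L57S, and 2.92 to 4.0 in the other 17 livers. Those rats are 1 lactating standard gravity, 1 pregnant hypergravity and 1 pregnant standard gravity rat. Cyp1a2 was 11.07 in L201S, 10.81 in L59H and 11.74 in L57S, the last being the highest Cyp1a2 value of the 20 livers. Cyp2c11, a male-specific rat liver steroid hydroxylase, had an SD of 1.04, with 6.38 in L216S, 6.13 in L203H and 6.12 in L219S and 2.58 to 4.63 elsewhere. Cyp3a18 (0.93), Cyp26a1 (0.90), Cyp2c13 (0.87) and Cyp17a1 (0.78) came next. The median SD was 0.28 for members and 0.28 for all probe sets in liver, 0.38 and 0.31 in mammary gland, and 0.24 and 0.31 in adipose tissue.

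Hypergravity against standard gravity moved few liver P450 genes. In lactation 1 member, Cyp2j4, was higher and 0 were lower, where 0.0934% of probe sets were higher and 0.312% lower. Its lactating hypergravity values of 8.29 to 9.07 lay above the 7.33, 7.46, 7.83, 7.99 and 8.20 of lactating standard gravity livers (log2 0.90, SE 0.18, adjusted p = 0.034). That call was lost with array weights (0.065), when only these groups were fitted (0.20) and without L203H (0.07), L212H (0.076), L217H (0.056), L201S (0.068), L216S (0.078) or L219S (0.10). Cyp2a1 passed only without L210H (0.73, adjusted p = 0.043). In pregnancy 0 members passed, with 0.103% of probe sets called and 5 members at an unadjusted p under 0.05. The smallest p-values were those of Cyp2f4 (7.44 in hypergravity and 6.61 at standard gravity, 0.83, adjusted p = 0.08, and 0.032 without L57S), Cyp3a9 (0.49, adjusted p = 0.33) and Cyp2j3 (-0.78, adjusted p = 0.36).

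No member passed for the difference of the stage effect between gravities in liver, where 0.126% of probe sets did, and 7 members had an unadjusted p under 0.05. Cyp2j3 (1.35), Cyp2j4 (0.95, adjusted p = 0.15) and Cyp3a9 (-0.76, adjusted p = 0.17) had the smallest p-values. The 8 calls in hypergravity and 1 at standard gravity are therefore not shown to differ. Cyp2f4 and Cyp3a18 also passed at standard gravity without L57S, Cyp2f4 at 0.81 (adjusted p = 0.026), and Cyp2f4 without L201S at 0.81 (adjusted p = 0.044).

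Partners and regulators of the P450 system, 32 of 34 listed genes with a probe set, were followed in the same fits. In liver in hypergravity 1 was higher and 4 lower in lactation, together 15.6% of the 32, where 1.22% of all probe sets were higher and 2.01% lower. The constitutive androstane receptor Nr1i3, which induces drug-oxidising P450 genes, averaged 5.70 in lactating and 4.48 in pregnant livers (1.22, adjusted p = 0.02). The prolactin receptor Prlr averaged 8.44 in lactating and 10.35 in pregnant livers (-1.91, SE 0.25, adjusted p = 0.00015). The growth hormone receptor Ghr averaged 11.37 and 12.29 (-0.92, adjusted p = 7.6e-05), the electron carrier Cyb5b differed by -0.69 and the liver transcription factor Hnf4a by -0.65 (adjusted p = 0.044). At standard gravity 0 were higher and 1 lower, where 0.341% and 0.280% of all probe sets were called. It was Ghr (11.62 in lactating and 12.19 in pregnant livers, -0.57, adjusted p = 0.014). No partner passed in a liver hypergravity comparison or in the difference of stage effects.

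In mammary gland most called P450 genes were lower in lactation, as were many other genes there. At standard gravity 1 member was higher and 7 lower, where 16.8% of probe sets were higher and 17.3% lower, so that the share of members that fell was under the background. In hypergravity 0 were higher and 8 lower, 14.8% of members, where 14.6% of probe sets were higher and 14.6% lower. Cyp2j3, Cyp2j4, Cyp4f17, Cyp4f6, Cyp4b1, Cyp2d4 and Cyp39a1 fell at both gravities. Members had a median log2 change of -0.25 at standard gravity and -0.45 in hypergravity, and all probe sets -0.01 and -0.04. These medians include M56H, M52S and M57S, pregnant arrays with raised liver-high members, and were not taken without them. Cyp2c7, for example, was 11.54 in M56H and 3.03 to 3.66 in the other pregnant hypergravity glands. A fall over the whole family is therefore not shown. Mean signal over 9 adipocyte markers was 7.38 to 7.92 in lactating and 7.63 to 8.28 in pregnant hypergravity glands, and 7.07 to 8.05 in lactating and 7.54 to 8.18 in pregnant standard gravity glands. Macrophage markers were 7.90 to 8.62 in lactating and 8.13 to 8.95 in pregnant hypergravity glands, and 7.17 to 7.66 in lactating and 8.45 to 8.93 in pregnant standard gravity glands, with no overlap at standard gravity. Milk protein markers were 12.94 to 13.02 in lactating and 12.64 to 12.89 in pregnant hypergravity glands, and 13.10 to 13.22 in lactating and 12.63 to 12.99 in pregnant standard gravity glands. The part of these markers in the changes was not tested.

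Of family 4, Cyp4f17, Cyp4b1 and Cyp4f6 fell at both gravities. Cyp4f17 was 4.77, 4.90, 5.22 and 5.28 in lactating and 5.85, 6.60, 6.71, 6.83 and 7.04 in pregnant hypergravity glands (log2 -1.56, SE 0.26, adjusted p = 0.00035). At standard gravity it was 4.29, 4.29, 4.41, 4.46 and 4.62 in lactating and 5.97, 5.98, 6.37, 6.78 and 7.38 in pregnant glands (log2 -2.08, SE 0.25, adjusted p = 8.6e-06). The groups were apart at both gravities. Cyp4b1, which bioactivates lung toxins and oxidises fatty acids, was 5.42, 5.46, 5.58 and 5.83 in lactating and 5.55, 6.78, 7.40, 7.81 and 7.84 in pregnant hypergravity glands (log2 -1.50, SE 0.39, adjusted p = 0.0081). The lowest pregnant value is that of M56H, and with M210H kept the adjusted p was 0.53, since M210H had 9.92. Standard gravity gave 5.43, 5.89, 6.00, 6.00 and 6.22 in lactating and 6.84, 8.09, 8.09, 8.15 and 8.72 in pregnant glands (log2 -2.07, SE 0.37, adjusted p = 0.00036), with no overlap. Cyp4f6, another member of the Cyp4f run, was 5.52 to 6.48 in lactating and 6.30 to 7.5 in pregnant hypergravity glands (-1.06, adjusted p = 0.0086). At standard gravity it was 4.97 to 5.80 in lactating and 6.62 to 7.72 in pregnant glands (-1.78, SE 0.27, adjusted p = 7e-05).

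Epoxygenases of the Cyp2j run went different ways in the gland. Cyp2j3 was 4.46, 4.79, 5.08 and 5.61 in lactating and 5.43, 6.01, 6.61, 6.65 and 6.67 in pregnant hypergravity glands (log2 -1.29, SE 0.28, adjusted p = 0.0022). Standard gravity gave 4.42, 4.64, 4.86, 4.87 and 5.25 in lactating and 5.62, 6.28, 6.37, 6.48 and 6.56 in pregnant glands (log2 -1.45, SE 0.26, adjusted p = 0.00034). Its second probe set gave -1.20 and -1.30. The hypergravity call was lost on leaving out every array with another tissue's markers (-0.88, adjusted p = 0.061) and with M210H kept (0.051). Cyp2j4 fell by 1.22 on the log2 scale in hypergravity (adjusted p = 0.0053) and by 1.12 at standard gravity (adjusted p = 0.0049).

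With M56H, M52S and M57S kept, Cyp2j10 was the member called higher in lactation at standard gravity, and it was not called in hypergravity. The difference between gravities did not pass (-1.83, adjusted p = 0.066). Standard gravity gave 7.89, 8.02, 8.10, 8.31 and 8.52 in lactating and 6.99, 7.06, 7.12, 7.29 and 7.40 in pregnant glands (log2 0.99, SE 0.37, adjusted p = 0.044), with no overlap. In hypergravity it was 5.92, 6.78, 7.04 and 7.43 in lactating and 6.03, 7.39, 7.96, 7.99 and 8.81 in pregnant glands, and the 6.03 is M56H. The standard gravity call was lost with M210H kept (0.21) and without M201S (0.062), M214S (0.082), M216S (0.097), M219S (0.065), M42S (0.076), M44S (0.064), M48S (0.081), M52S (0.077) or M57S (0.055), and held at 1.05 (adjusted p = 0.018) without M56H, M52S and M57S together. Without these 3 arrays the hypergravity change was -1.24 (adjusted p = 0.0042).

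Cyp2t1, Cyp2d4 and Cyp39a1 made up the remaining mammary calls. Cyp2t1 was 5.29, 5.35, 5.67 and 5.87 in lactating and 6.16, 7.09, 7.30, 7.44 and 8.01 in pregnant hypergravity glands (log2 -1.65, SE 0.35, adjusted p = 0.0019), with no overlap. At standard gravity it was 5.81 to 7.05 in lactating and 6.13 to 7.64 in pregnant glands, not called, but called without M219S (-0.97, adjusted p = 0.035) or M42S (-1.06, adjusted p = 0.011). Cyp2d4, a member known from rat brain, fell by 0.69 in hypergravity (adjusted p = 0.012, and 0.087 with M210H kept) and by 0.64 at standard gravity (adjusted p = 0.01). Cyp39a1, an oxysterol hydroxylase, fell by 0.79 and 0.76, with both stages under the array median. Cyp1a1, Cyp1b1, Cyp19a1, Cyp26b1 and Cyp27b1 had group means between 2.61 and 4.08 in these mammary groups and were not called. Cyp2e1 averaged 3.68 ± 0.66 in lactating (n = 4) and 6.18 ± 1.97 in pregnant hypergravity glands (n = 5), with 9.58 in M56H.

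Without M56H, M52S and M57S, 13 members were called for stage in hypergravity in place of 8. The share of all probe sets called in that repeat is not given here, so the gain is not shown to be particular to P450 genes. The further ones were Cyp11a1 (-0.95), Cyp11b1 (-0.52), Cyp19a1 (-0.33), Cyp2e1 (-1.66, adjusted p = 0.04) and Cyp2j10 (-1.24), and leaving out M56H alone gave Cyp11a1 (adjusted p = 0.011), Cyp11b1 (0.021), Cyp19a1 (0.04) and Cyp2j10 (0.0022). Cyp11b1 and Cyp19a1 lay under the array medians. With those arrays kept, the brightest Cyp19a1 probe set gave -0.25 and the others -0.05 and -0.01. Leaving out 1 other array gave Cyp11a1 without M217H (0.035), Cyp2a1 without M55H (0.036), Cyp2e1 without M60H (0.044), and Cyp4f5 without M217H (0.026), M50H (0.042) or M55H (0.046), the last as a rise of 0.53 to 0.61. At standard gravity Cyp2c12 differed by -1.01 with M56H, M52S and M57S kept (adjusted p = 0.61) and by 0.69 without them (adjusted p = 0.04), where it was called higher in lactation. Lactating arrays had 2.97, 3.07, 3.11, 3.79 (M219S) and 4.09 (M202S) and the pregnant arrays left 2.65 to 2.78, all under the array medians. M219S and M202S had hepatocyte marker means of 4.66 and 4.56, the highest of the other 16 mammary arrays, and their part was not tested. Also at standard gravity, Cyp21a1 passed without M202S (0.048) and Cyp46a1 without M44S (0.039).

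**Figure D4:**
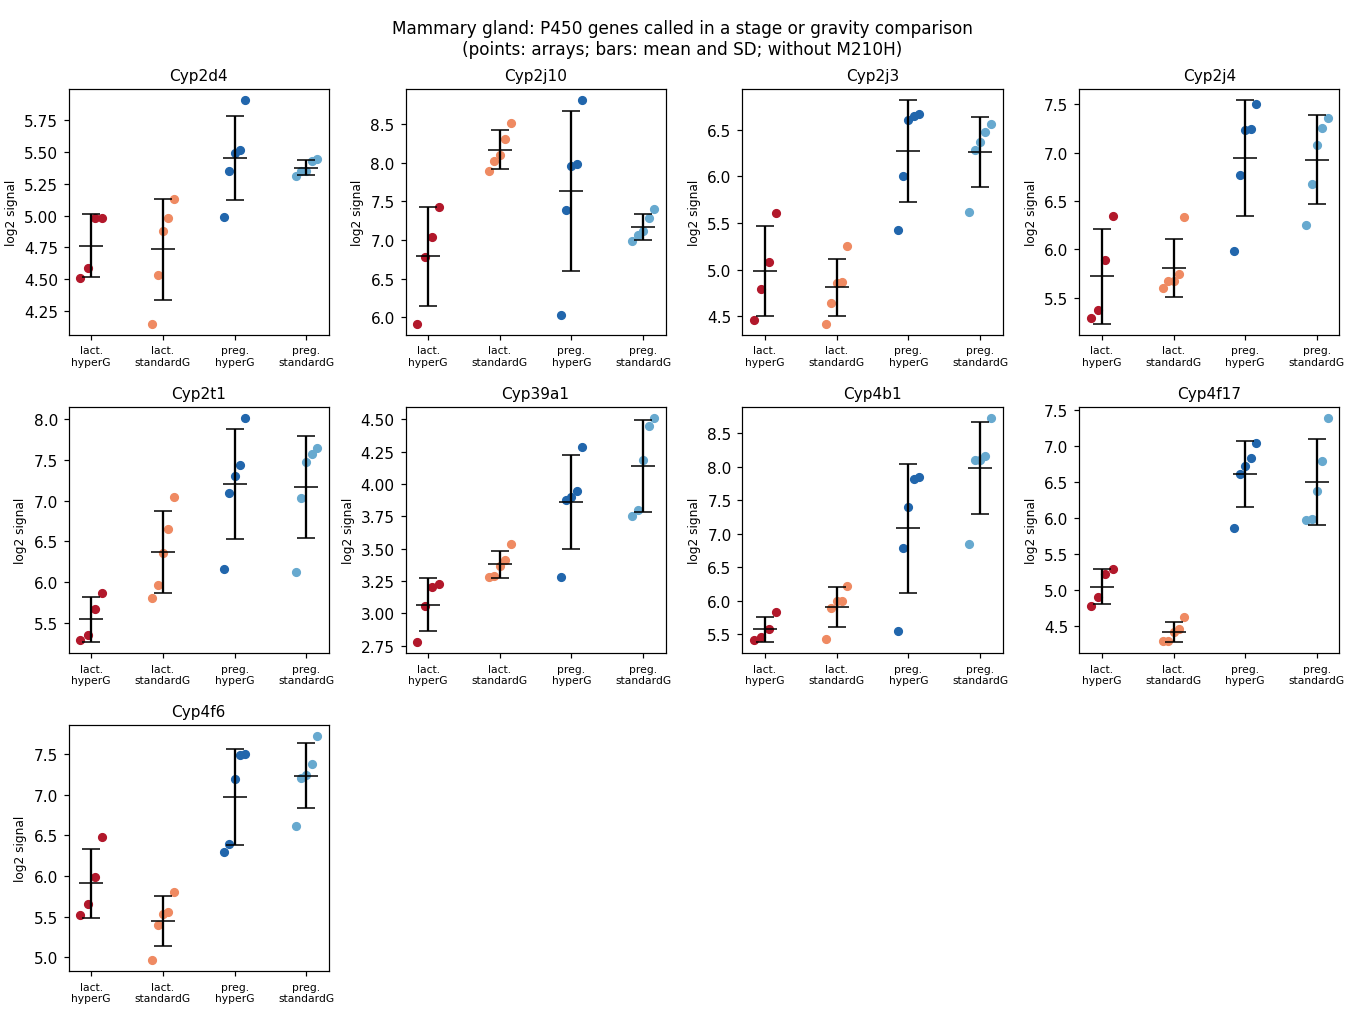
Log2 signal in each mammary array of the P450 genes called in a mammary stage or gravity comparison (points, 4 arrays in lactating hypergravity and 5 in the other groups; bars, mean and SD; each panel has its own axis). At each gravity the lactating mean lies below the pregnant mean in every panel but that of Cyp2j10, whose lactating standard gravity arrays, at 7.89 to 8.52, lie above the pregnant ones at 6.99 to 7.40.

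Hypergravity against standard gravity changed 1 P450 gene in the lactating gland, Cyp2j10, which was lower, and 0 were higher, where 4.49% of probe sets were higher and 4.94% lower. Its 5.92 to 7.43 in hypergravity lay under the 7.89 to 8.52 at standard gravity (log2 -1.37, SE 0.39, adjusted p = 0.031). Macrophage markers were apart in these groups too, at 7.90 to 8.62 in hypergravity and 7.17 to 7.66 at standard gravity, and their part was not tested. The call was lost without M203H (0.13), M206H (0.073), M217H (0.053), M201S (0.052), M214S (0.063), M216S (0.072) or M219S (0.053), and Cyp27b1 passed without M216S (-0.91, adjusted p = 0.037). Cyp2c12 (-0.72, adjusted p = 0.048) and Cyp4v3 (0.75, adjusted p = 0.032) passed without M56H, M52S and M57S. The Cyp2c12 values lay under the array medians and were highest in M202S (4.09) and M219S (3.79), the arrays with the highest hepatocyte markers left. In pregnancy 0 members passed, where 0.00322% of probe sets did, and 3 had an unadjusted p under 0.05, namely Cyp19a1 (0.33, adjusted p = 0.76), Cyp4b1 (-0.90, adjusted p = 0.88) and Cyp11b1 (0.40, adjusted p = 0.93).

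For the difference of the stage effect between gravities 0 mammary members passed, where 4.03% of probe sets did, and 3 had an unadjusted p under 0.05. They were Cyp2j10 (-1.83, SE 0.53, adjusted p = 0.066), Cyp27b1 (-0.88, adjusted p = 0.22) and Cyp4v3 (0.83, adjusted p = 0.29). Cyp2j10 passed without M56H (-2.23, adjusted p = 0.002), without M212H (-2.04, adjusted p = 0.047) and without M56H, M52S and M57S (-2.29, adjusted p = 0.0075), and Cyp4v3 without M56H (1.08, adjusted p = 0.047).

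Among the 32 partners, 4 were higher and 6 lower in lactating glands at standard gravity, together 31.2%. Of all probe sets 16.8% were higher and 17.3% lower there. Prlr averaged 8.69 in lactating and 6.91 in pregnant glands (1.78, adjusted p = 0.014). The sterol receptor Nr1h3 averaged 5.53 and 7.12 (-1.58), Alas1, which starts haem synthesis, 7.41 and 8.97 (-1.56, adjusted p = 7.9e-05), Stat5b 3.93 and 5.32 (-1.39), and Cyb5b 8.42 and 7.37 (1.05). In hypergravity 1 was higher and 4 lower, together 15.6%, where 14.6% of probe sets were higher and 14.6% lower. Alas1 averaged 6.87 in lactating and 8.79 in pregnant glands (-1.92, adjusted p = 4.6e-05), Stat5a 10.06 and 8.14 (1.92, adjusted p = 0.032), Nr1h3 6.21 and 7.10 (-0.90), the electron carrier of mitochondrial P450 enzymes Fdx1 8.93 and 9.73 (-0.80), and the aryl hydrocarbon receptor repressor Ahrr 2.83 and 3.26 (-0.43, adjusted p rounding to 0.05). In the lactating gland, hypergravity against standard gravity, 1 was higher and 3 lower, together 12.5%, where 4.49% of probe sets were higher and 4.94% lower. They were Cyb5b (-1.23), the stress factor Nfe2l2 (-1.20), Stat5b (0.95) and Pgrmc2 (-0.49). No partner passed in the pregnant gland or for the difference of stage effects.

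The stage effect itself differed between liver and mammary gland for several P450 genes. These contrasts were added after the data were seen. They came from the fit of 58 arrays, in which all tissues share 1 estimate of the spread. No repeat of them used the rat as a block. In hypergravity 12 members passed, with the liver effect above the mammary effect in each, where 24.4% of probe sets were called in either direction. Without M56H, M52S and M57S, Cyp3a9 (-0.57, adjusted p = 0.035, and 0.35 with them) and Cyp4a3 (-0.85, adjusted p = 0.038, and -0.38 with them) passed with the liver effect below the mammary effect, and with array weights Cyp4a3 did (-0.96, adjusted p = 0.024). At standard gravity 12 passed, 10 of them above and 2 below, where 22.1% of probe sets were called, so the members' share of calls was close to the background in both. Cyp2j3 stood out in size, at 3.39 (SE 0.41, adjusted p = 2.8e-08) in hypergravity and 2.20 (SE 0.39, adjusted p = 3.7e-05) at standard gravity, with stage effects of 2.10 in liver and -1.29 in gland in hypergravity, and of 0.75 (not called) and -1.45 at standard gravity. Cyp2j4 differed by 2.01 in hypergravity (adjusted p = 0.00016), Cyp2t1 by 2.44 and 1.42, and Cyp4f6 by 0.89 and 2.26. Cyp2d2 (1.63 in hypergravity) was 0.73 without those 3 arrays, with 7.32 in M56H. Cyp2j10 had 1.06 in hypergravity (adjusted p = 0.035) and -1.23 at standard gravity (adjusted p = 0.012, and 0.27 with M210H and A210H kept).

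**Figure D5:**
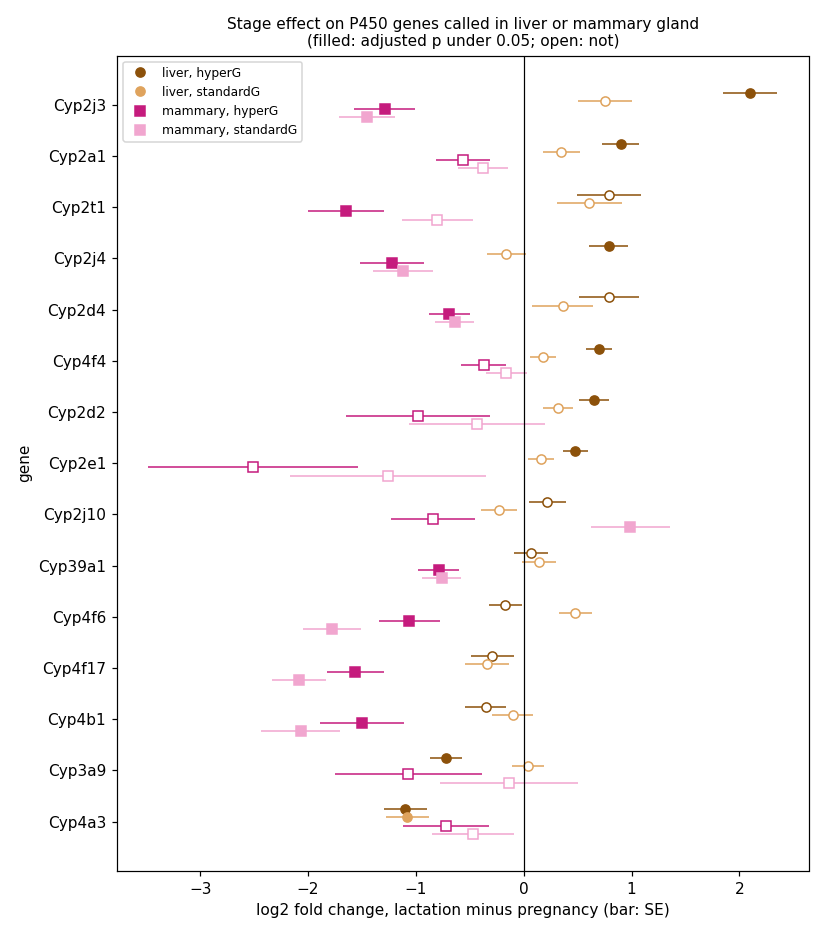
Log2 fold change of lactation over pregnancy (horizontal axis, bars show SE) of P450 genes called in liver or mammary gland at either gravity (rows, ordered by the liver effect in hypergravity). Filled points passed an adjusted p of 0.05. Cyp2j3 lies at 2.10 in hypergravity liver and at -1.29 in hypergravity mammary gland, and Cyp4a3 lies left of 0 in all.

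In adipose tissue no P450 gene passed in any stage or gravity comparison, and hardly any probe set did: 0.00322% for stage at standard gravity, and 0% for stage in hypergravity, for gravity in pregnancy, for gravity in lactation and for the difference of stage effects. Members at an unadjusted p under 0.05 numbered 4, 0, 3, 1 and 1 in that order. At standard gravity the smallest p-values for stage were those of Cyp26b1 (6.78 in lactating and 4.99 in pregnant tissue, 1.79, adjusted p = 0.64), Cyp1b1 (1.06, adjusted p = 0.73) and Cyp2e1 (2.24, adjusted p = 0.79). In hypergravity they were those of Cyp4f5 (0.63), Cyp2e1 (1.37) and Cyp21a1 (-0.39). For gravity in pregnancy they were those of Cyp1b1 (0.89), Cyp46a1 (-0.31) and Cyp2e1 (2.26), and in lactation those of Cyp26b1 (-1.27), Cyp3a23-3a1 (-0.22) and Cyp11b1 (-0.24). For the difference of stage effects they were those of Cyp26b1 (-1.97), Cyp1b1 (-1.13) and Cyp39a1 (0.48), all at an adjusted p of 1 after rounding outside the first comparison.

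Adipose levels differed widely between rats. A48S, with a muscle marker mean of 12.35, had the lowest Cyp11a1 (5.96) and Cyp4b1 (7.37) of the pregnant standard gravity arrays. A217H, with a muscle marker mean of 10.99, had 4.91 for Cyp2e1, where the other lactating hypergravity arrays had 8.93, 8.94 and 10.42. The part of muscle RNA was not tested. Cyp2e1 ran from 3.43 to 10.42 over the 19 arrays, with group means of 8.30 ± 2.37 (n = 4) in lactating hypergravity, 6.91 ± 1.86 (n = 5) in lactating standard gravity, 6.93 ± 1.06 in pregnant hypergravity and 4.67 ± 1.29 in pregnant standard gravity tissue. Cyp11a1 averaged 8.29 ± 0.48, 8.26 ± 0.48, 8.56 ± 1.00 and 7.64 ± 1.22 in the same order. Markers of adrenal cortex steroid cells other than P450 (3 of 4 listed) had a mean of 3.55 to 4.73 in adipose arrays and of 3.15 to 3.63 in liver arrays, and their part was not tested. Cyp4b1 averaged 8.11 ± 0.79, 8.45 ± 0.23, 7.81 ± 0.73 and 7.99 ± 0.47, Cyp1a1 2.97 to 3.08, Cyp19a1 2.56 to 2.79 and Cyp27b1 2.95 to 3.07.

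The microgravity set was normalised apart, with array medians of 4.87 to 5.02, and was compared within itself. Microgravity against the flight control, 0 members passed, where 0.271% of probe sets were higher and 0.0966% lower, and 3 members had an unadjusted p under 0.05. Against the vivarium control 0 passed, where 0.319% were higher and 0.174% lower, with 3 such members. Flight against vivarium control, 0 passed, where 0.00322% did, with 2 such members. None of the 32 partners passed either. Skeletal muscle markers had a mean of 4.24 to 4.39 in microgravity, 4.32 to 4.65 in the flight control and 4.45 to 8.19 in the vivarium control, and their part was not tested.

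Cyp1a1 had the smallest p in both microgravity comparisons. It was 3.15, 3.37, 3.56 and 4.94 in microgravity, 2.52, 2.64, 2.67 and 2.68 in the flight control and 2.57, 2.63, 2.65 and 3.03 in the vivarium control. Each microgravity array lay above each control array, at 1.13 above the flight control (SE 0.30, adjusted p = 0.13) and 1.04 above the vivarium control (adjusted p = 0.20), with 11 of 12 arrays under the array medians. Cyp4b1 was 7.81, 8.39, 8.5 and 8.57 in microgravity, 7.12, 7.45, 7.90 and 7.92 in the flight control and 7.73, 7.82, 7.93 and 7.98 in the vivarium control (0.71, adjusted p = 0.14, and 0.45, adjusted p = 0.49). Cyp2a3 (-0.42, adjusted p = 0.33) against the flight control and Cyp46a1 (-0.40, adjusted p = 0.47) against the vivarium control followed. Between the controls the smallest p-values were those of Cyp1a2 (0.45, adjusted p = 0.43), Cyp26b1 (1.08) and Cyp2d4 (0.29).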

How the data were processed

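Per the labels' protocols, RNA was extracted with TRIzol (mammary gland, liver) or RNeasy Lipid (adipose tissue), and 25 ng went into a NuGEN Ovation Biotin preparation for Affymetrix rat arrays. The deposited values are log2 signals of 31042 probe sets from RMA, per the submitters' processing notes, and RMA's settings were not given in the sources used here. Arrays of 1 group carry different rat codes and were treated as separate animals. The labels do not say this of letters A to D in the microgravity set, so p-values there measure the spread between those arrays, which may be technical.

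Members, roles and gene lists were chosen with earlier results of these data known. Probe sets were named from the platform annotation (20826 with 1 gene symbol, 436 with several, 9780 with none). limma 3.58.1 in R 4.3.3 (lmFit, eBayes, group means) was fitted to 20 liver, 19 mammary, 19 adipose, 58 tissue and 12 microgravity arrays, with two-sided p-values adjusted by Benjamini and Hochberg over all probe sets and no filter. A gene is called at adjusted p under 0.05, and SE is limma's moderated one. The fit was tested on simulated data. Every called liver member is named, up to 8 per direction elsewhere, the 3 smallest p-values where none passed, a fixed set of liver, mammary and adipose genes, and up to 5 partners. The design's Cyp2b1, Cyp2b2, Cyp4a2 and Cyp24a1 have no single-symbol value here. Promoters were searched on both strands.

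Rat codes pair tissues by the labels: same-rat deviations from group means had r of -0.05 to 0.33 over 57 pairs of arrays. Letters of the microgravity set do not (r of -0.15 to 0.08 over 12 pairs). Alternatives were array weights, trend and robust variance, repeated quantile normalization, median centring, no dim probe sets, the mean of a gene's probe sets, and only the groups compared. Others were exchanged arrays kept, arrays with markers of another tissue left out, a replicate block (not for the liver minus mammary stage contrasts) and each array left out. The arrays left out for such markers were M56H, M52S, M57S, M50H, M212H, A48S, A217H, VIVA and VIVC. No liver array was among them, and L55H, L212H, L214S and A55H stayed in. The repeat without FLTB, the count of expressed members without M56H, M52S and M57S, and the liver minus mammary stage contrasts were added after seeing the data.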

Additional observations from a re-analysis of the deposited data

Results flagged for a closer look

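Groups of the called genes with the largest changes in each direction were examined for an outlying array, 56 in all. Mammary groups of Cyp2j4, Cyp2d4 and Cyp39a1, which were called there, were not among them. Of the 56 groups 1 held an array far from the others: Cyp3a9 in lactating hypergravity livers had 11.06 in L212H, where the other 4 had 10.65 to 10.74. Chance alone flags about 5% of groups. L212H also had the lowest upper quartile of all probe sets among the livers, 6.53, where the others had 6.93 to 7.10. It was kept in the main fits.

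Stage effects (lactation minus pregnancy) were compared between liver and mammary gland in the fit of 58 arrays, which pools the spread over tissues. Cyp3a18 had a within-group SD of 0.93 in liver, 0.21 in mammary gland and 0.13 in adipose tissue, and Cyp4a1 0.65, 0.29 and 0.13. Neither was called for stage in the liver fit. Mammary means of Cyp3a18, Cyp4a1, Cyp2a1, Cyp2f4 and Cyp4f4 lay under the array medians. By the test of the difference the stage effect differed for these members, given as the liver effect minus the mammary effect on the log2 scale. In hypergravity they were Cyp2j3 (3.39), Cyp2t1 (2.44), Cyp2j4 (2.01), Cyp3a18 (1.64), Cyp2d2 (1.63), Cyp2d4 (1.48), Cyp2a1 (1.45), Cyp4f17 (1.27), Cyp4f4 (1.07), Cyp2j10 (1.06), Cyp4f6 (0.89) and Cyp39a1 (0.87). At standard gravity they were Cyp4f6 (2.26), Cyp2j3 (2.20), Cyp4b1 (1.96), Cyp4f17 (1.74), Cyp3a18 (1.48), Cyp2t1 (1.42), Cyp2d4 (1.01), Cyp39a1 (0.90), Cyp2a1 (0.73), Cyp2f4 (0.70), Cyp2j10 (-1.23) and Cyp4a1 (-1.32). Without M56H, M52S and M57S, the standard gravity calls of Cyp2d4 (adjusted p = 0.077), Cyp2t1 (0.069) and Cyp3a18 (0.086) were lost, and Cyp2c22 (0.72) passed there. In hypergravity Cyp2d2 was then 0.73, and Cyp4b1 (1.53), Cyp26b1 (1.65), Cyp11b1 (0.82), Cyp2c23 (0.43), Cyp3a9 (-0.57) and Cyp4a3 (-0.85) passed.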

How the results depend on the processing

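Of 2428 repeats of single called genes 2346 kept direction and call, 82 kept the direction and lost the call, and 0 turned round. Counts of called members moved by over 1.5 times as follows. With array weights, liver gravity in lactation gave 0 and in pregnancy 1, liver stage at standard gravity 2, mammary gravity in lactation 5, mammary stage at standard gravity 14, the mammary difference of stage effects 2, and the liver minus mammary stage contrast at standard gravity 20. Fitting only the groups compared gave 0 for liver gravity in lactation and 4 for the mammary one. With M210H and A210H kept, mammary gravity in lactation gave 3. Without M56H, M52S and M57S it was 3, mammary stage in hypergravity 13 and the mammary difference of stage effects 1. That difference was also 1 with dim probe sets removed and on leaving out every array with another tissue's markers. The cause was not tested. Shares of all probe sets called are not given for these repeats, so changes in the counts are not shown to be particular to P450 genes. With 1 array left out, counts ran from 7 to 9 for liver stage in hypergravity and from 1 to 3 at standard gravity, from 0 to 2 for liver gravity in lactation and 0 to 1 in pregnancy, from 8 to 12 for mammary stage in hypergravity and 7 to 9 at standard gravity, from 0 to 1 for mammary gravity in lactation and 0 to 2 for the difference of stage effects. With 1 rat left out they ran from 41 to 45 (liver minus mammary), 46 to 48 (liver minus adipose), 16 to 23 (mammary minus adipose), and 9 to 15 in hypergravity and 8 to 17 at standard gravity (stage contrasts of liver minus mammary). With the rat as a replicate block the tissue counts were 44, 48 and 20, and with the letter as a block the microgravity counts stayed at 0, as they did without FLTB. Signal near background limits the members under the array medians.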
